A study of Mus musculus with 6 samples.

Results

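The 10 genes described here are those of the NRF2 pathway and of glutathione synthesis: Nfe2l2, Keap1, Nqo1, Gclc, Gclm, Gsr, Hmox1, Txnrd1, Srxn1 and Slc7a11. They were taken by their symbols from a table of 51912 genes measured in mouse liver, and all 10 were found. Liver RNA was sequenced from C57/B6 mice at 21 days of age in 6 samples, 3 from mice breastfed by mothers given the antimicrobial triclosan (TCS) and 3 from mice breastfed by vehicle mothers on regular breastmilk. According to the methods the mothers received TCS, dissolved in DMSO and water, in their chow through pregnancy and lactation, at 120 ppm, a dose that the labels place in the breastmilk. Each sample pooled RNA of 3 mice, the litters behind each pool are not given, and all mice were wild type. The methods give only a minimum number of independent litters per group, so that pools of a group may share mothers. The vehicle mothers received DMSO and water alone.

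NRF2, encoded by Nfe2l2, is a transcription factor that turns on genes against oxidants and reactive chemicals. In unstressed cells the adaptor KEAP1 hands it to a ubiquitin ligase for destruction, and when reactive compounds modify the cysteines of KEAP1, NRF2 protein builds up, pairs with small MAF proteins and binds antioxidant response elements, short sequences near its target genes. Control is thus largely at the level of the protein, which RNA sequencing does not read. The targets include the enzymes that make glutathione, the main thiol of the liver, as well as those that recycle it, and the liver uses glutathione both against peroxides and to conjugate foreign compounds.

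The antioxidant response element has the core TGACNNNGC, and promoter windows from 250 bases before to 50 bases after the start of transcription (RefSeq, GRCm38.p6) were at hand for 7 of the 10 members, in 9 windows because Txnrd1 has 3 starts. Windows of Gclc, Gsr and Hmox1 were not used here. The core was found on either strand in 4 windows, of Gclm, Nfe2l2, Srxn1 and the middle start of Txnrd1. It occurs in 12.4% of all 32851 windows in the table and in 14.2% of the 12381 windows of the genes tested below. The core with A after its last base, present in 3.04% of all windows, was found in Txnrd1 alone, at position -93 on the reverse strand, where the core within it starts at position -92. Srxn1 held the core at position 29 and the AP-1 site TGANTCA, found in 7.81% of all windows, at positions -102 and -45. A form with G in place of C, TGAGNNNGC, was searched after the windows had been seen and occurs in 17.6% of all. It was found in Srxn1 at positions -158 and -45, the latter overlapping the AP-1 site there, and in Slc7a11 at position -97. No match was found in the windows of Keap1 and Nqo1 or at the other starts of Txnrd1, and sequence outside the windows was not searched. The windows of Srxn1 and Txnrd1 are shown because these genes had the largest difference and the smallest p among the members, and that of Gclm because it holds the core while the gene differed less. Capitals mark the matches, and a match on the reverse strand appears as its reverse complement.
Srxn1 (chr2:152105274-152105573, plus strand): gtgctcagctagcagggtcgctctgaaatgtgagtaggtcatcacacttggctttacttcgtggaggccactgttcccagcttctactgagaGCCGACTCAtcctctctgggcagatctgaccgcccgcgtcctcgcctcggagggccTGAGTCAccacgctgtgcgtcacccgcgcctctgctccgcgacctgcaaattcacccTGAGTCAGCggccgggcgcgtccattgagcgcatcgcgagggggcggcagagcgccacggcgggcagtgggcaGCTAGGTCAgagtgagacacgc
Txnrd1, middle start (chr10:82858956-82859255, plus strand): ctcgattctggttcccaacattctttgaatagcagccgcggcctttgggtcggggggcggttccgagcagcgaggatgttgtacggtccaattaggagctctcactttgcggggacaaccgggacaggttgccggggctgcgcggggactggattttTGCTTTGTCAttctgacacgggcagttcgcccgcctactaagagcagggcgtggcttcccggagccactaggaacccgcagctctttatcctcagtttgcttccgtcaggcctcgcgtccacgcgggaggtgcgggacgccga
Gclm (chr3:122245307-122245606, plus strand): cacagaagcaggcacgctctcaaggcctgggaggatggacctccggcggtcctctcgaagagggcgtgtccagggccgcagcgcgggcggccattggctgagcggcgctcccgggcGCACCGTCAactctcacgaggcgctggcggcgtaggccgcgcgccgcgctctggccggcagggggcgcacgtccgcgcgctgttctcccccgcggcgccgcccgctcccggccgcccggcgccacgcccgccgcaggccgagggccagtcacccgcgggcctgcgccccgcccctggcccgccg
These matches describe the letters of the windows and not binding of NRF2, which was not measured.

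**Figure D1:**
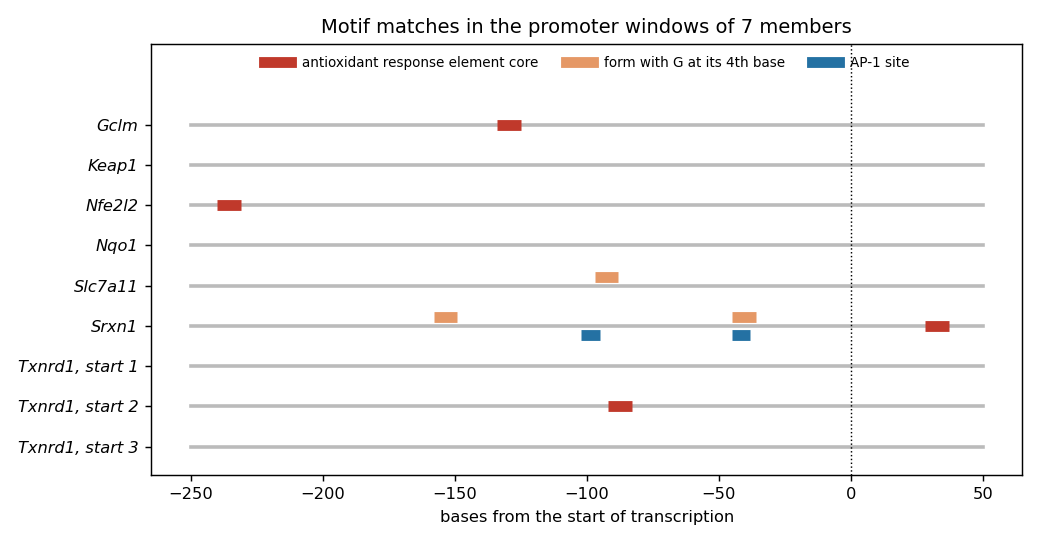
Matches to the antioxidant response element core, to its form with G in place of C and to the AP-1 site in the 9 promoter windows of 7 members, drawn by distance in bases from the start of transcription (dotted line). The core was found in 4 windows, and Srxn1 was the member that held all 3 kinds of match.

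Values are TPM, the share of a gene among all transcripts of a library after correction for gene length, which the authors scaled to 1 common total per sample, so that how deeply each library was sequenced is unknown. A gene's TPM can therefore change because abundant genes do. Albumin RNA, the most abundant of the hepatocyte markers, ranged from 95700 to 107000 TPM in vehicle and from 87600 to 89900 TPM in TCS samples, and the sum of 10 hepatocyte markers was 128147 to 136432 TPM against 112539 to 116045 TPM. The median log2 fold change over the 13325 genes tested was 0.13 as deposited and -0.0018 after rescaling by median-of-ratios factors, so that each member is also given on the rescaled values. Although the methods name male mice only, Xist, which female cells express, was at 46.4, 1.8 and 88.3 TPM in the vehicle samples and at 0.0144, 98.7 and 44 TPM in the TCS samples. Xist did not follow the groups, and with its level as a covariate the 9 tested members differed by -0.10 to 0.65 on the log2 scale, with 0 called, 6 higher and 0 lower at an unadjusted p under 0.05 (21.4% and 3.63% of all genes tested). None of the 12 Kupffer cell and macrophage markers passed the test, and their sum was 423.5 to 494.5 TPM in vehicle and 407 to 497 TPM in TCS. The sum of 9 stellate cell markers was 146 to 169 TPM in vehicle against 173 to 201 TPM in TCS, without overlap. Col3a1 was the largest part of it, at 72.5 TPM in vehicle and 92.3 TPM in TCS. Of the 9 stellate markers 7 had a log2 fold change above 0, while Reln was lower on average and Hand2 in every TCS sample. Red cell markers, 10 of them in the table, summed to 4880 to 5286 TPM in vehicle and to 4279 to 4779 TPM in TCS, also without overlap. Globin genes made up most of this sum, with Hbb-bs alone at 2510 TPM in vehicle and 2183 TPM in TCS. The globin genes Hbb-bt and Hba-a1 overlapped between the groups. Of the 9 red cell markers tested, 3, namely Alas2, Klf1 and Tfrc, had a log2 fold change above 0. The sums of cholangiocyte, neutrophil and endothelial markers overlapped. At an unadjusted p under 0.05, where 19.5% of all genes tested were higher and 3.5% lower, 4 of the 9 stellate markers were higher and 0 lower, 4 of the 10 hepatocyte markers were lower and 0 higher, and 1 of the 9 red cell markers tested was lower and 0 higher. After rescaling, where 8.31% and 8.97% of all genes tested were higher and lower, the stellate markers had 2 higher and 2 lower, and 8 hepatocyte, 4 red cell and 2 Kupffer markers were lower with 0 higher. None of the markers was called, and none of the Kupffer, stellate, hepatocyte or red cell markers was at 0 in all samples. The part of these cell types and of albumin in the results below was not tested, and in bulk RNA fewer cells of a type and less RNA per cell cannot be told apart.

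A group of 5 target genes lay higher in every TCS liver sample than in every vehicle sample, at about 1.5 times the vehicle level: Srxn1, Nqo1, Gclc, Gsr and Txnrd1. Keap1 was also higher in every TCS sample, by a smaller ratio. Gclm and Nfe2l2 itself were higher on average with overlapping samples, Hmox1 was about level, and Slc7a11 was barely present. None of them passed the threshold. With limma's moderated test on log2(TPM + 1) and Benjamini-Hochberg adjustment over every tested gene, 0 of the 9 members tested had an adjusted p under 0.05, while 23 of the 13325 genes did (0.173%, of which 0.0826% were higher and 0.0901% lower). At an unadjusted p under 0.05, 6 of the 9 were higher and 0 lower, where 19.5% of all genes tested were higher and 3.5% lower. The same 6 lay without overlap above vehicle, as did 25.1% of all genes tested, and 0 lay below it, as did 4.61%. The study draws Nqo1 and Gclc as raised in these samples. For the genes of that figure it states an adjusted p below 0.05 from its own analysis, unlike the 0 members called here. It also shows NQO1 protein raised on a representative immunoblot. The members were chosen with results known, so the counts are not independent evidence.

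**Figure D2:**
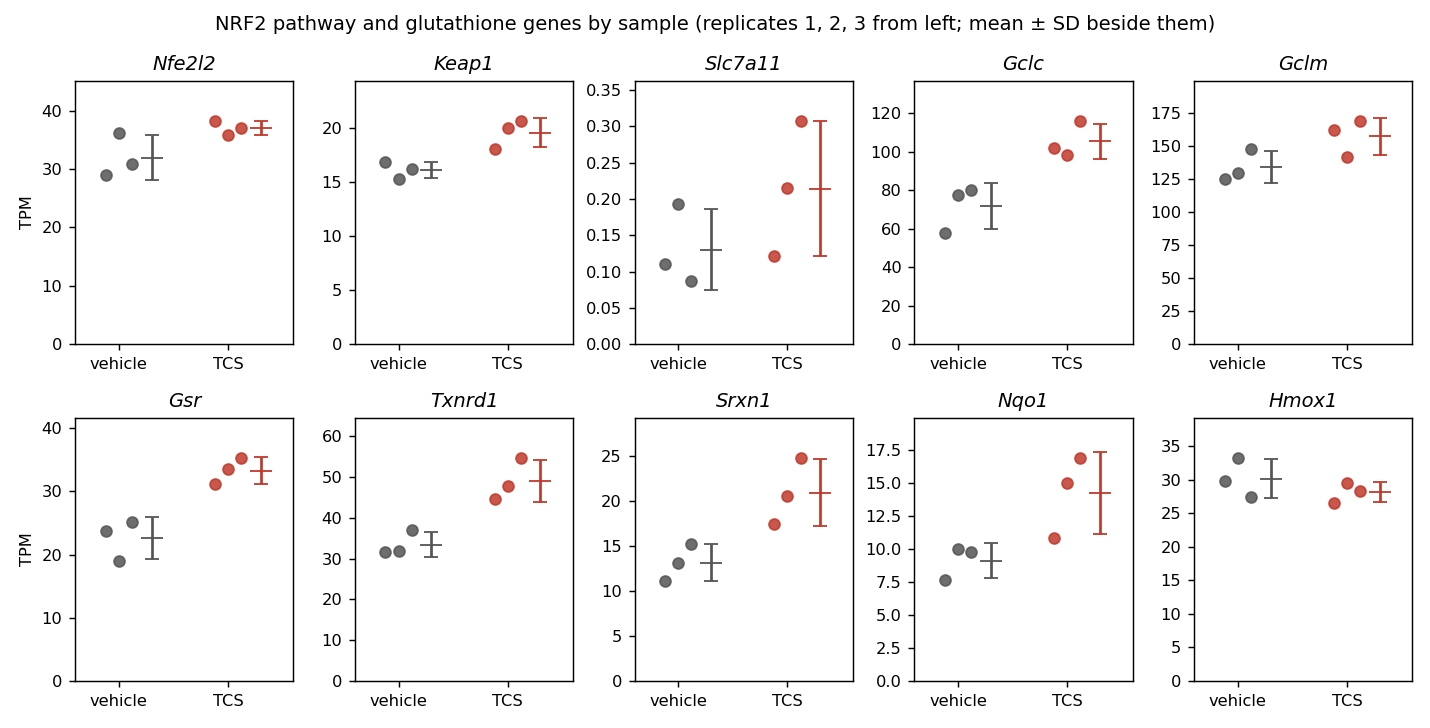
TPM of the 10 members in each of the 3 vehicle and 3 TCS samples (points, replicates 1 to 3 from left), with the mean and SD of each group beside them and each axis starting at 0. Srxn1, Nqo1, Gclc, Gsr, Txnrd1 and Keap1 have every TCS sample above every vehicle sample, and Nfe2l2, Gclm, Hmox1 and Slc7a11 do not.

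Nfe2l2 (chromosome 2 of GRCm38 from 75675513 to 75704641) was at 28.9, 36.2 and 30.8 TPM in the vehicle samples and at 38.2, 35.9 and 37.1 TPM in the TCS samples. Vehicle replicate 2 reached the TCS level, and the groups overlapped. The means were 37.1 ± 1.15 TPM in TCS against 32 ± 3.79 TPM in vehicle (SD, n = 3), a log2 fold change of 0.21 (limma, with a standard error, SE, of 0.10, 95% interval -0.02 to 0.44 and adjusted p = 0.241). After rescaling the log2 fold change of Nfe2l2 was 0.06, about that of the median gene. Keap1 (chromosome 9 from 21229730 to 21239361) was at 16.8, 15.3 and 16.2 TPM in vehicle and at 18, 20 and 20.6 TPM in TCS. Its samples did not overlap, and they lay close together within each group. Keap1 had a log2 fold change of 0.26 (limma, SE 0.08, 95% interval 0.06 to 0.46 and adjusted p = 0.146). After rescaling the log2 fold change of Keap1 was 0.12 and its samples overlapped. The ratio of Nfe2l2 to Keap1, which does not depend on how a library is scaled, was 1.91 ± 0.187 in TCS and 1.996 ± 0.333 in vehicle (SD, n = 3).

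Glutathione is made from glutamate, cysteine and glycine. SLC7A11 brings in cystine, the source of cysteine, GCLC and GCLM form the ligase that joins glutamate to cysteine in the limiting step, and GSR returns oxidized glutathione to its reduced form with NADPH. Slc7a11 (chromosome 3 from 49892526 to 50443614) was at 0.11, 0.193 and 0.0868 TPM in vehicle and at 0.121, 0.215 and 0.307 TPM in TCS, below the 1 TPM needed in 3 samples for the test. These were the lowest levels of any member, and the groups overlapped. Fitted without the filter, Slc7a11 had a log2 fold change of TPM + 1 of 0.10 (limma, adjusted p = 0.585).

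Gclc, the catalytic subunit (chromosome 9 from 77754535 to 77794485), was at 57.9, 77.6 and 80 TPM in vehicle and at 102, 98.6 and 116 TPM in TCS. Every TCS sample lay well above the vehicle samples, of which replicate 1 was the lowest. The means were 106 ± 9.22 TPM in TCS against 71.8 ± 12.1 TPM in vehicle (SD, n = 3), 1.47 times as much. The log2 fold change of Gclc was 0.56 (limma, SE 0.14, 95% interval 0.23 to 0.89 and adjusted p = 0.110) and 0.41 after rescaling. Gclm, the modifier subunit that makes the ligase more active (chromosome 3 from 122245557 to 122270732), was at 125, 130 and 148 TPM in vehicle and at 162, 142 and 169 TPM in TCS. Vehicle replicate 3 exceeded TCS replicate 2, so that the groups overlapped. Its log2 fold change was 0.23 (limma, SE 0.10, 95% interval -0.01 to 0.46 and adjusted p = 0.223), and 0.08 after rescaling.

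The subunits of the ligase thus differed in how far they lay from vehicle. The ratio of Gclc to Gclm RNA within a library was 0.463, 0.597 and 0.541 in the vehicle samples and 0.63, 0.694 and 0.686 in the TCS samples. Gclm was the more abundant in all 6, and the ratio was higher in each TCS sample. The mean ratio was 0.67 ± 0.0353 in TCS and 0.534 ± 0.0671 in vehicle (SD, n = 3), with p = 0.1 in an exact two-sided permutation test, the smallest that 3 against 3 samples allow. This ratio was chosen after its values were seen, as 1 of 4 computed, and its adjusted p over these was 0.133. The adjustment does not allow for that choice. The ratio also sets a gene already higher without overlap over one whose samples overlapped.

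Gsr (chromosome 8 from 33652523 to 33698163) was at 23.8, 18.9 and 25.2 TPM in vehicle and at 31.1, 33.5 and 35.3 TPM in TCS. The lowest TCS sample lay above the highest vehicle sample by more than the SD of either group. The means were 33.3 ± 2.11 TPM in TCS against 22.6 ± 3.31 TPM in vehicle (SD, n = 3), 1.47 times as much. Gsr had a log2 fold change of 0.55 (limma, SE 0.12, 95% interval 0.26 to 0.83 and adjusted p = 0.0978) and 0.40 after rescaling.

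Thioredoxin reductase 1 and sulfiredoxin 1 serve the other thiol system of the cytosol, in which thioredoxin and the peroxiredoxins remove peroxides. Txnrd1 (chromosome 10 from 82833951 to 82897712) keeps thioredoxin reduced and was at 31.5, 31.9 and 36.9 TPM in vehicle and at 44.6, 47.9 and 54.7 TPM in TCS. The groups lay apart, with means of 49.1 ± 5.15 TPM in TCS against 33.4 ± 3.01 TPM in vehicle (SD, n = 3). For Txnrd1 the log2 fold change was 0.54 (limma, SE 0.10, 95% interval 0.29 to 0.79 and adjusted p = 0.0876), the smallest p among the members, and 0.39 after rescaling (adjusted p = 0.0880). Srxn1 (chromosome 2 from 152105516 to 152111376) repairs over-oxidized peroxiredoxins and was at 11.1, 13.1 and 15.2 TPM in vehicle and at 17.4, 20.6 and 24.8 TPM in TCS. Its samples spread widely within each group but did not overlap. Srxn1 had the largest log2 fold change of the tested members, 0.63 (limma, SE 0.16, 95% interval 0.25 to 1.01 and adjusted p = 0.113), and 0.49 after rescaling. The core element in its window and that in the window of Txnrd1, with its added A, are marked in the sequences printed above.

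Nqo1 (chromosome 8 from 107388225 to 107403206) reduces quinones with a pair of electrons and is a standard readout of NRF2, although the aryl hydrocarbon receptor also drives it. It was at 7.63, 9.96 and 9.78 TPM in vehicle and at 10.8, 15 and 16.9 TPM in TCS. TCS replicate 1 stood only just above the vehicle samples, and the other TCS samples lay well clear of them. The means were 14.2 ± 3.12 TPM in TCS against 9.12 ± 1.296 TPM in vehicle (SD, n = 3), 1.56 times as much. The log2 fold change of Nqo1 was 0.58 (limma, SE 0.18, 95% interval 0.14 to 1.01 and adjusted p = 0.145) and 0.44 after rescaling. Hmox1 (chromosome 8 from 75093621 to 75100589), which breaks down heme, is a target of NRF2 and is also expressed in macrophages that clear red cells, was at 29.8, 33.3 and 27.5 TPM in vehicle and at 26.6, 29.5 and 28.4 TPM in TCS. The groups overlapped, and Hmox1 was the member with a lower mean in TCS. Its log2 fold change was -0.09 (limma, SE 0.09, 95% interval -0.31 to 0.12 and adjusted p = 0.551), so that a gain as large as the 0.54 of Txnrd1 lies outside this interval. Across the members, 5 were higher and 1, Hmox1, lower at an unadjusted p under 0.05 after rescaling (8.31% and 8.97% of all genes tested), as after quantile normalization (8.71% and 8.28%). After rescaling the groups of Hmox1 no longer overlapped, and its log2 fold change was -0.24 (unadjusted p = 0.0444, adjusted p = 0.279 from limma). Beside Hmox1, the Kupffer marker sums overlapped between the groups. The red cell marker sums, mostly globin RNA, were lower in every TCS sample, and the part of either in the value of Hmox1 was not tested. The ratio of Txnrd1 to Hmox1 was 1.06, 0.958 and 1.34 in vehicle and 1.68, 1.62 and 1.93 in TCS, and that of Gsr to Hmox1 was 0.761 ± 0.177 in vehicle and 1.183 ± 0.0549 in TCS (SD, n = 3). Neither ratio overlapped between the groups, with p = 0.1 for each in the exact permutation test and 0.133 after adjustment over the 4 ratios. Both ratios were also chosen after the values were seen, and the adjustment does not allow for that choice. They set genes already higher without overlap over the member with a lower mean, so their separation adds no evidence.

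**Figure D3:**
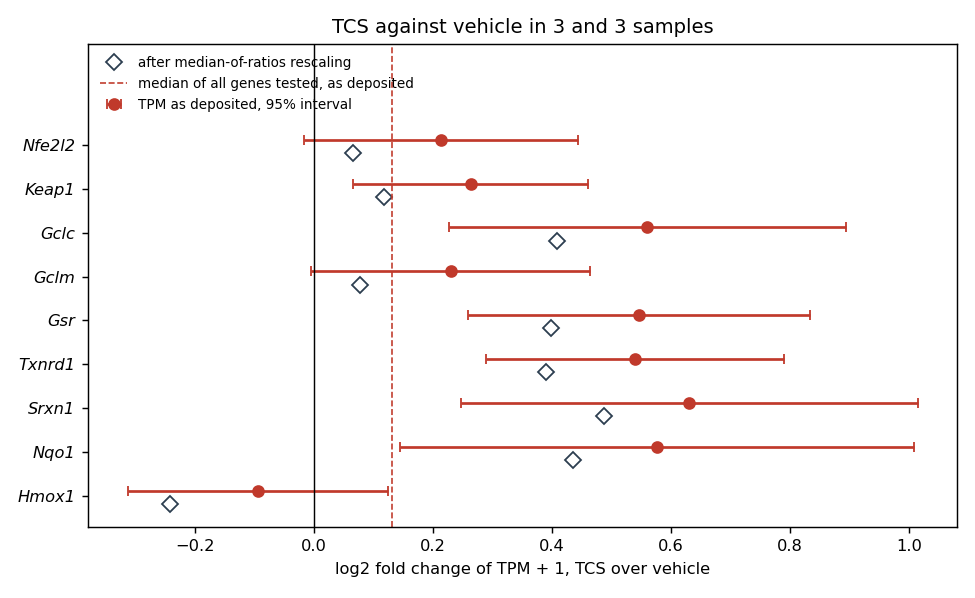
Log2 fold change of TPM + 1 (TCS over vehicle, 3 samples each) for the 9 members tested, with its 95% interval from limma (filled) and the value after median-of-ratios rescaling (diamonds). Gclc, Gsr, Txnrd1, Srxn1 and Nqo1 lie between 0.54 and 0.63 with intervals above 0, Hmox1 lies at -0.09, and the dashed line marks the median of all genes tested, 0.13.

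Since TPM is a measure per length, levels can be set against each other. In vehicle livers Gclm was the most abundant member at 134 ± 12.1 TPM (SD, n = 3), followed by Gclc. Txnrd1 at 33.4 TPM, Nfe2l2 at 32 TPM and Hmox1 at 30.2 TPM came next and could not be separated, since the samples of neighbours overlapped. Gsr at 22.6 TPM, Keap1 at 16.1 TPM, Srxn1 at 13.1 TPM and Nqo1 at 9.12 TPM followed, each without overlap with its neighbour, and Slc7a11 stood far below. In TCS livers the order was Gclm at 158 TPM, Gclc at 106 TPM, Txnrd1 at 49.1 TPM, Nfe2l2 at 37.1 TPM, Gsr at 33.3 TPM, Hmox1 at 28.2 TPM, Srxn1 at 20.9 TPM, Keap1 at 19.5 TPM and Nqo1 at 14.2 TPM. There Srxn1 and Keap1 alone of the neighbours overlapped, and Gsr had passed Hmox1.

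Patterns over the 6 samples are a description, since the points share the difference between the groups. Among the members, Srxn1 followed Txnrd1 with r = 0.979 and Nqo1 with r = 0.968, whereas Hmox1 had r = -0.523 with Txnrd1. The genes most like Nqo1 over the 6 samples among 8686 others with a mean of at least 5 TPM were Hat1 (r = 0.9996), Tenm3 (r = 0.998) and Srpk2 (r = 0.997), but 1007 genes had r above 0.9. Those most like Gclc were Ugt2a3, Mcm6 and Cops3, with r = 0.995, 0.995 and 0.994, but 713 genes had r above 0.9. For Nfe2l2 they were the exporter gene Abcc3 (r = 0.998), Eef1d (r = 0.993) and Stk16 (r = 0.992), with 231 genes at r above 0.9.

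Genes around the members were read as lists, in each of which 0 genes passed the threshold by limma, and their counts at an unadjusted p under 0.05 stand beside 19.5% higher and 3.5% lower among all genes tested, or 8.31% and 8.97% after rescaling. Of 15 partners and repressors of NRF2, 1 was higher and 1 lower at an unadjusted p under 0.05, and their median log2 fold change was 0.10, beside 0.13 for all genes tested. After rescaling 1 was higher and 2 lower with a median of -0.04. Without TCS replicate 1 the deposited values gave 3 higher, beside 21.8% of all genes tested. They gave 2 without vehicle replicate 3 or TCS replicate 2, beside 19.3% and 12.3%. Maff, a small MAF partner, was at 6.95, 9.82 and 5.16 TPM in vehicle and at 3.01, 2.78 and 2.88 TPM in TCS, without overlap and 0.395 times as much on average. Its log2 fold change was -1.06 (limma, SE 0.20 and adjusted p = 0.0875), while Mafg and Mafk, the other small MAF genes, had -0.08 and 0.01 (chosen after their values were seen). Nfe2l1, a relative of Nfe2l2 that drives proteasome genes, was at 34.6 ± 4.33 TPM in vehicle and 46.2 ± 4.36 TPM in TCS (SD, n = 3, log2 fold change 0.41, adjusted p = 0.128 from limma). The autophagy receptor gene Sqstm1, which also competes for KEAP1, and Nfe2l3 had log2 fold changes of 0.20 and 0.29 with overlapping samples.

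Of 22 further genes that make, break down or use glutathione, 18 were tested, with 5 higher and 1 lower at an unadjusted p under 0.05 and a median log2 fold change of 0.17. Ggt6, of the family that splits glutathione outside cells, was at 3.27, 3.04 and 3.34 TPM in vehicle and at 6.18, 6.52 and 5.54 TPM in TCS. These groups lay far apart beside a spread of less than 1 TPM, and Ggt6 came closest to the threshold, with a log2 fold change of 0.75 (limma, SE 0.10 and adjusted p = 0.0537). Chac1, which degrades glutathione inside cells, was at 4.95, 3.85 and 5.53 TPM in vehicle and at 1.45, 2.19 and 2.88 TPM in TCS, without overlap. Its log2 fold change was -0.88 (limma, SE 0.20 and adjusted p = 0.1001). The peptidase genes Cndp2 and Lap3 were 1.26 times (limma, adjusted p = 0.0929) and 1.201 times (adjusted p = 0.137) as high in TCS as in vehicle. Gss, which adds glycine in the last step of synthesis, was at 46.1 TPM in vehicle and 50.1 TPM in TCS (log2 fold change 0.12, chosen after its value was seen). After rescaling 2 genes of this list were higher and 2 lower at an unadjusted p under 0.05, with a median of 0.02. On the deposited values the 5 higher became 3 without vehicle replicate 1 and 2 without TCS replicate 2, beside 13.0% and 12.3% of all genes tested.

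In the thioredoxin list 3 of 16 were higher and 1 lower at an unadjusted p under 0.05, with a median of 0.07. The 3 are 18.8% of the list, about the share of all genes, and after rescaling 1 was higher and 2 lower with a median of -0.07, so that the direction turned. Without vehicle replicate 1 the deposited values gave 1 higher, beside 13.0% of all genes tested. Txnip, the inhibitor of thioredoxin, was at 56.1, 97.7 and 87.5 TPM in vehicle and at 47, 50.5 and 42.9 TPM in TCS, a log2 fold change of -0.73 (limma, adjusted p = 0.127). Every TCS sample lay below the vehicle samples. Prdx1, a peroxiredoxin that Srxn1 repairs, was at 1207 ± 55.1 TPM in vehicle and 1473 ± 140 TPM in TCS (SD, n = 3), Txnl1 had a log2 fold change of 0.34 and Txn1 of 0.27. Among 8 genes of heme and iron, 2 were higher and 1 lower at that p, with a median of 0.16. After rescaling 1 was higher and 1 lower with a median of 0.01. On the deposited values 1 was higher without vehicle replicate 1 or TCS replicate 3, beside 13.0% and 11.9% of all genes tested. The red cell marker sums, mostly globin RNA and lower in every TCS sample, stand beside these genes as well, and their part was not tested. Blvra, which reduces the biliverdin that heme oxygenase makes, had a log2 fold change of 0.36, the ferritin gene Ftl1 0.34 and Blvrb 0.17. The other ferritin gene of the list, Fth1, was at 1743 TPM in vehicle and 1673 TPM in TCS with overlapping samples. Its log2 fold change was -0.06, and -0.21 after rescaling (chosen after its values were seen). Hmox2, the constitutive heme oxygenase, was at 65.1 ± 3.68 TPM in vehicle and 54.4 ± 2.26 TPM in TCS (SD, n = 3), and its log2 fold change was -0.25 (limma, adjusted p = 0.127).

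Of 7 genes for enzymes that supply NADPH or act in the pentose phosphate pathway, 5 were higher at an unadjusted p under 0.05 and 0 lower. The median log2 fold change of this list was 0.42, and the 5 were as many after rescaling. Me1, also a gene of fatty acid synthesis, was at 30.9, 43.5 and 38.9 TPM in vehicle and at 59.8, 74.4 and 101 TPM in TCS (log2 fold change 1.02, adjusted p = 0.0932 from limma). Pgd of the pentose phosphate pathway and Idh1 had log2 fold changes of 0.60 (limma, adjusted p = 0.0957) and 0.56 (adjusted p = 0.0942), and Taldo1 of 0.30. None of these 4 overlapped between the groups. Of 34 detoxification genes 31 were tested, and 23 were higher and 0 lower at an unadjusted p under 0.05, with a median of 0.44. After rescaling 15 were higher and 1 lower with a median of 0.30. Without vehicle replicate 1 the deposited values gave 14 higher, beside 13.0% of all genes tested. Gstm4, a glutathione transferase, was at 25.2, 33.2 and 31.2 TPM in vehicle and at 52.9, 73.2 and 68.8 TPM in TCS, without overlap and 2.18 times as much on average. Its log2 fold change was 1.09 (limma, SE 0.15 and adjusted p = 0.0576). Gstm6 was at 47.6 ± 7.37 TPM in vehicle and 71.3 ± 7.75 TPM in TCS (SD, n = 3). The study draws both of these as raised in the same samples, and states an adjusted p below 0.05 for the genes of that figure from its own analysis. Genes of this family are near-identical copies among which reads can be misassigned. Aldehyde oxidase Aox1, the nucleotidase Entpd5 and the microsomal transferase Mgst1 were 2.06, 1.84 and 1.33 times as high in TCS as in vehicle, with limma's adjusted p at 0.0882, 0.0975 and 0.0866.

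**Figure D4:**
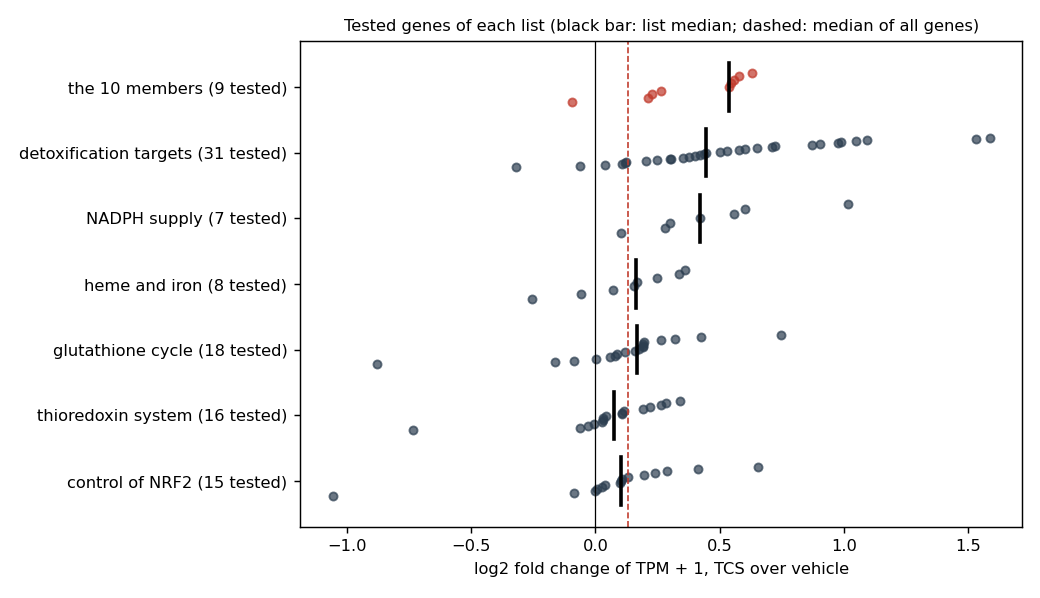
Log2 fold change of TPM + 1 (TCS over vehicle) of each tested gene in the members (red) and in 6 lists of related genes (blue), with the median of each list as a bar and the median of all genes tested, 0.13, as a dashed line. The medians of the members, of the detoxification targets and of NADPH supply with the pentose phosphate pathway are 0.54, 0.44 and 0.42. Those of the other lists lie between 0.07 and 0.17.

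The calls of the members depended on 1 setting. With limma's array weights, which weighted TCS replicate 2 at 4.76 and the other samples at 0.533 to 1.2, 5 members passed the threshold, namely Txnrd1, Gsr, Srxn1, Nqo1 and Gclc (adjusted p = 0.0280, 0.0312, 0.0378, 0.0424 and 0.0460). The same setting called 1006 genes higher and 234 lower among all 13325 tested, as against 11 and 12 as reported. At an unadjusted p under 0.05 it gave 28.6% of all genes tested as higher. With each replicate left out in turn 0 members passed, beside 0 to 22 genes called higher and 0 to 13 lower among all tested. In these fits 4 to 7 members were higher at an unadjusted p under 0.05, where 11.9% to 21.8% of all genes tested were higher. In all 16 alternatives each of the 9 members tested kept its direction.

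**Figure D5:**
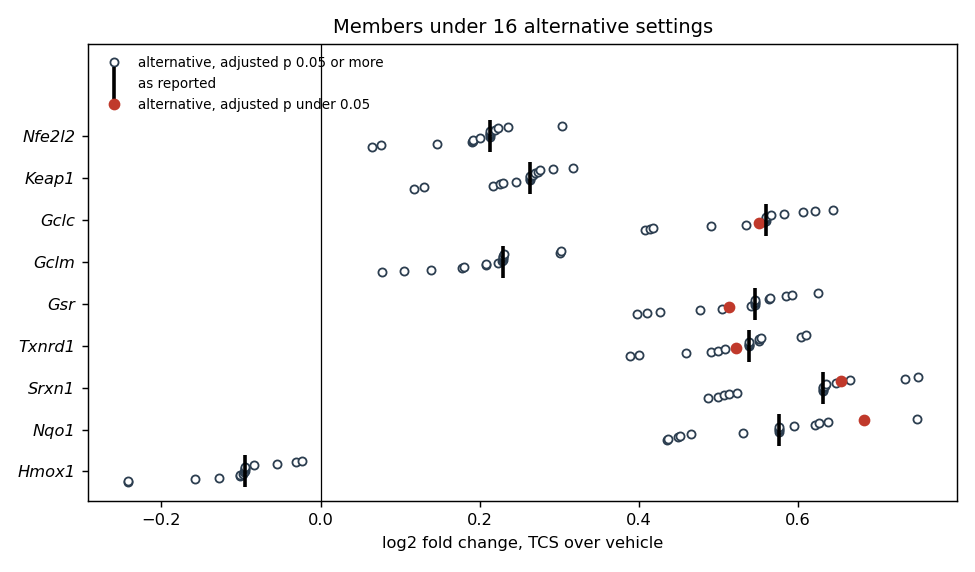
Log2 fold change (TCS over vehicle) of the 9 members tested as reported (bar) and under 16 alternative settings (circles, filled where the adjusted p from limma was under 0.05). No value crosses 0, the filled points are those with array weights in 5 members, and Nfe2l2, Keap1 and Gclm come closest to 0 among the genes above it.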

How the data were processed

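Liver RNA libraries (TruSeq, Illumina NovaSeq) of 3 vehicle and 3 TCS samples were used. Per the methods, the authors used bcl2fastq 2.17.1.14 for base calls and STAR 2.2.0c for alignment to mm10 (GRCm38), kept unique reads and counted RefSeq exons by strand with HOMER as FPKM. The table they deposited holds TPM under Ensembl identifiers, rounded to 3 significant digits, and how the TPM was made is not given in the sources used here. TPM keeps no depth, so no counting error is given and p-values measure the spread between pools. Columns name the group and a number that ties to no sample label. The authors' fold changes and adjusted p-values, in a table of their own, were not used.

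Genes that reached 1 TPM in 3 or more samples were tested with limma 3.58.1 (R 4.3.3) on log2(TPM + 1) with a variance trend, Benjamini-Hochberg over 13325 genes and a threshold of adjusted p under 0.05. A log2(TPM + 1) change understates that of low genes. The fit was tested on simulated data with independent noise per gene. The simulation held no shift over most genes and no samples of unequal quality, so it does not cover these features of the data. The members, the lists and the rule for naming genes (all members, and from each list the genes called and up to 4 with the smallest p, with the genes the study draws beside Nqo1 and Gclc) were chosen with earlier results of these data known. Ratios of 2 genes, all chosen after the values were seen, were tested by exact two-sided permutation over samples. Coordinates are from GENCODE M21, promoters from RefSeq. Alternatives were other pseudocounts, filters and scalings, no trend, array weights, a replicate block and each replicate left out, and a fit with Xist was added after seeing the data.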

Additional observations from a re-analysis of the deposited data

How the results depend on the processing

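The log2 fold changes of the 9 members tested kept their direction in all 144 combinations of member and alternative, and in 139 also their side of the threshold. The 5 exceptions were the members called with array weights, whose log2 fold changes there were 0.55 for Gclc, 0.51 for Gsr, 0.52 for Txnrd1, 0.65 for Srxn1 and 0.68 for Nqo1. After median-of-ratios rescaling or quantile normalization 5 members were higher and 1, Hmox1, was lower at an unadjusted p under 0.05, in place of 6 and 0, and the unadjusted p of Keap1 was 0.133 and 0.106. With a pseudocount of 0.1 Slc7a11 differed by 0.43 on the log2 scale, in place of 0.10.

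Over all genes the calls were 11 higher and 12 lower as reported, 0 and 0 without the filter (where 3123 and 714 had an unadjusted p under 0.05), 35 and 24 at a filter of 5 TPM, 10 and 18 after median-of-ratios rescaling, 8 and 20 after quantile normalization, 1006 and 234 with array weights and 1 and 3 with Xist as a covariate. With 1 replicate left out they ranged from 0 to 22 higher and from 0 to 13 lower. Leaving out vehicle replicate 2 gave 22 and 7. Dropping either replicate 1 gave 1 and 3, and the calls became 0 and 1 when TCS replicate 2 was left out and 0 and 0 (1580 and 453 at an unadjusted p under 0.05) when TCS replicate 3 was. Samples of the same column number did not deviate together (r = -0.01, -0.25 and -0.07), and a replicate block on that number gave 0 calls in either direction by limma (2622 higher and 448 lower at an unadjusted p under 0.05), with 7 of the 9 members higher at an unadjusted p under 0.05 and 0 called. The unknown depth limits what can be said of Slc7a11.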

Other observations

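Other stress and xenobiotic programs share targets with NRF2. Targets of ATF4, the factor of the integrated stress response, which also drives Slc7a11 and Chac1, had 3 genes higher and 3 lower at an unadjusted p under 0.05 among 21 tested, 0 called by limma and a median log2 fold change of -0.01, beside 19.5% higher and 3.5% lower among all genes tested. After rescaling 1 was higher and 4 lower with a median of -0.13. The 3 higher became 1 without vehicle replicate 1, TCS replicate 2 or TCS replicate 3, beside 13.0%, 12.3% and 11.9% of all genes tested. Atf4 itself was at 43.1 TPM in vehicle and 47.3 TPM in TCS with overlapping samples (chosen after its values were seen). Cebpb was at 37.4, 31.9 and 35.5 TPM in vehicle and at 25.8, 25.4 and 20 TPM in TCS, a log2 fold change of -0.54 (limma, adjusted p = 0.0977), Gdf15 had one of -0.41 and Shmt2 one of 0.24.

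Of targets of the aryl hydrocarbon receptor and of CAR, a nuclear receptor for foreign compounds, 9 of 12 were tested, with 5 higher and 0 lower at an unadjusted p under 0.05 and a median of 0.52. After rescaling 4 were higher and 0 lower with a median of 0.37. On the deposited values 8 were higher without vehicle replicate 2, beside 15.6% of all genes tested. Cyp2b10, the standard CAR target, was at 4.03, 34.9 and 7.6 TPM in vehicle and at 68.3, 105 and 87.7 TPM in TCS. Its TCS samples lay above all vehicle samples, of which replicate 2 was high, and the log2 fold change was 2.90 (limma, SE 0.68 and adjusted p = 0.104). The CAR target Cyp2c29 had a log2 fold change of 1.29 (limma, adjusted p = 0.0576), Cyp2c55 one of 2.26 (adjusted p = 0.0866) and Cyp3a11 one of 1.34 (adjusted p = 0.134). Cyp1a1, the standard target of the aryl hydrocarbon receptor, was at 0.945 TPM in vehicle and 0.708 TPM in TCS, below the level needed for the test. Tiparp, another of its targets, differed by -0.04 on the log2 scale (both chosen after their values were seen). Cyp1a2, a further target, was at 400, 568 and 523 TPM in vehicle and at 599, 572 and 575 TPM in TCS, without overlap. The log2 fold change of Cyp1a2 was 0.24 (limma, adjusted p = 0.305) and 0.09 after rescaling, and this gene too was chosen after its values were seen. The part of CAR or of the aryl hydrocarbon receptor in the values of Nqo1, Gclc or the glutathione transferases was not tested.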
